A study of Homo sapiens with 6 samples.

Results

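The enzymes that methylate histone H3 at lysine 4 in human cells work as COMPASS-type complexes, and the 10 genes described here encode the subunits and chromatin partners that these enzymes share: the core proteins WDR5, RBBP5, ASH2L and DPY30, the adaptors menin (MEN1) and HCFC1, the SETD1 complex subunits CXXC1 and WDR82, and the partners PSIP1 and BOD1L1. The 10 are a list of gene symbols drawn up by complex membership, with earlier results of these data known, and each was found once among the 59715 gene IDs of the deposited count table. RNA came from HCT116 cells, a colorectal carcinoma line that is widely used, in 3 libraries of MLL4 knockout cells (MLL4KO) and 3 libraries of wild-type cells (MLL4WT), with no treatment named for either genotype. Poly(A) RNA was sequenced. The labels do not say how many knockout clones were used or whether replicates were grown apart, so the p-values reflect spread among these libraries that may be technical. All 10 members passed the filter on low counts, which kept 14543 genes, and all had counts in every library, from 255 for BOD1L1 in the shallowest library upward.

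A SET domain enzyme such as MLL1, MLL4 or SETD1A is weakly active alone, and the core of WDR5, RBBP5, ASH2L and DPY30, often called WRAD, binds it and raises its activity. The core is common to all 6 enzymes of the family, while menin and HCFC1 join only some of them, CXXC1 and WDR82 belong to the SETD1 complexes, and PSIP1 (also LEDGF) links menin and MLL1 to chromatin. The enzymes deposit mono-, di- and trimethylation on H3 lysine 4, marks of enhancers and promoters.

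Library totals ranged from 14775580 to 19736751 counts in MLL4KO and from 6829400 to 17828774 in MLL4WT, and MLL4WT replicate 1, the shallowest, stood apart from the other libraries of its genotype, its counts differing from theirs by a chi-square of 7.98 and 7.88 per degree of freedom, where the other pairs within a genotype had 1.85 to 2.52. KMT2D, which most human studies call MLL4, was at 230, 243 and 225 CPM (counts scaled by library size) in MLL4KO and 240, 231 and 234 CPM in MLL4WT, and KMT2B, which has also been called MLL4, fell 1.42-fold. No source used here says where the deletion lies, and RNA over a whole gene does not check a small deletion. Of 9 markers of colorectal epithelium, 6 exceeded 1 CPM in every library and CDX1 had no count in any, and their summed level was 1080 to 1110 CPM in MLL4KO and 1610 to 1670 CPM in MLL4WT. The log2 fold change was -0.70 for KRT8, -0.68 for KRT18, -0.52 for EPCAM and -0.29 for KRT19. For CDH1 it was 0.04 and for CDX2 0.10, so the lower sum was not shared by all of these markers. Summed markers of blood cells stayed under 1 CPM in every library, while summed fibroblast markers were at 30 to 34.4 CPM in MLL4KO and 24.8 to 26.7 CPM in MLL4WT, and summed endothelial markers at 2.88 to 3.76 CPM and 1.78 to 2.19 CPM. Of the fibroblast markers, the log2 fold change was 0.28 for COL1A1, 0.65 for PDGFRB and -0.24 for COL1A2, the last from 3 to 22 counts per library. The part of these differences in the members' values was not tested.

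Between the genotypes the shared subunits differed little. In the edgeR quasi-likelihood test, adjusted by Benjamini-Hochberg over all 14543 genes, 1 of the 10 members rose (PSIP1), 2 fell (CXXC1 and WDR5) and 7 did not pass an adjusted p under 0.05. The background was high, with 19.8% of all tested genes higher and 21.6% lower in MLL4KO, or 41.4% in either direction, so 3 of 10 members is not above the share of all genes. The median log2 fold change of the members was -0.03, and the median size regardless of sign was 0.13, against 0.00 and 0.22 over all tested genes. Summed over the 10 members, the level was 1435, 1458 and 1435 CPM in MLL4KO and 1425, 1454 and 1422 CPM in MLL4WT, so that the summed RNA of these subunits overlapped between the genotypes. RNA from a bulk culture cannot tell fewer expressing cells from less RNA per cell.

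**Figure D1:**
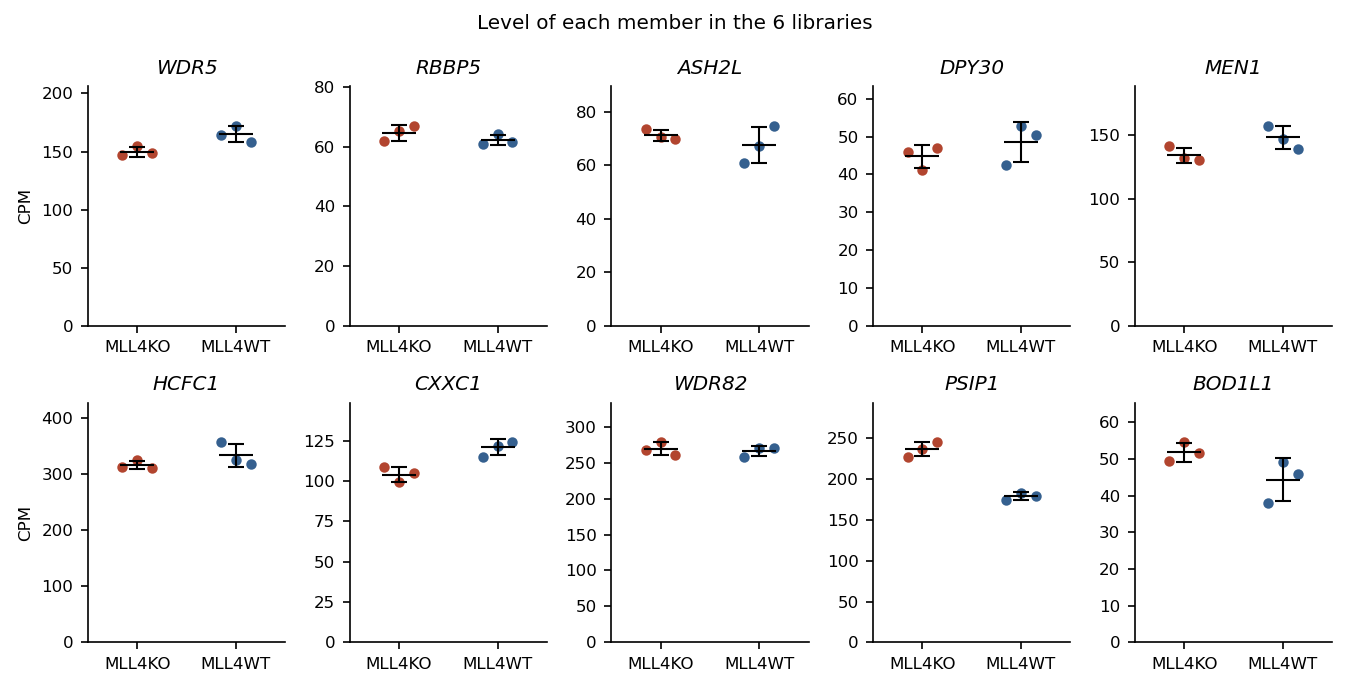
Level of each of the 10 members in CPM (vertical axes, each starting at 0) in the 3 MLL4KO and the 3 MLL4WT libraries; points are libraries, horizontal lines the mean and whiskers the SD. The groups separate for PSIP1, CXXC1, WDR5 and BOD1L1, and overlap for the other 6.

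**Figure D2:**
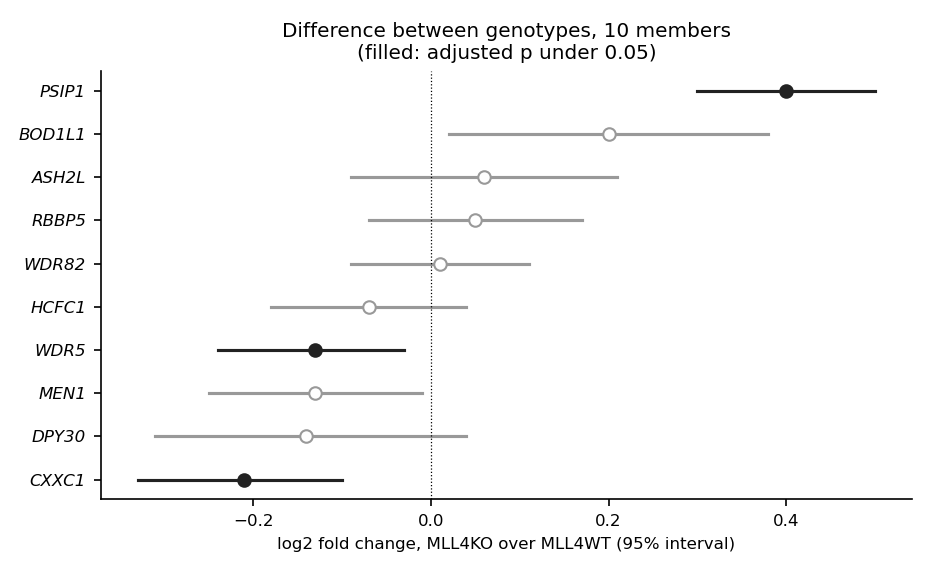
Log2 fold change of each member, MLL4KO over MLL4WT, with its 95% interval from the edgeR test; filled points passed an adjusted p under 0.05. PSIP1 lies at 0.40, CXXC1 at -0.21 and WDR5 at -0.13.

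Promoter windows from RefSeq (GRCh38.p14), each reaching from 250 bases before a gene's start to 50 after it, were used for 7 of the 10 members. None was used for ASH2L, DPY30 and HCFC1. Where a gene had several, the one nearest its 5′ end was taken. The stretches of 150 bases shown here come from PSIP1, the member that rose, and WDR82, the member with the smallest difference; both are clear of annotated exons, written 5′ to 3′ on the gene's strand, with CpG dinucleotides in capitals. The PSIP1 stretch is chr9:15511020-15511169 on the minus strand, ending 49 bases before the RefSeq start, and the WDR82 stretch is chr3:52278650-52278799 on the minus strand, ending at the RefSeq start. This WDR82 start lies inside the gene as annotated, whose 5′ end is at 52288020. The windows of WDR82, MEN1 and CXXC1 lie wholly inside the annotated genes, downstream of their 5′ ends.
PSIP1: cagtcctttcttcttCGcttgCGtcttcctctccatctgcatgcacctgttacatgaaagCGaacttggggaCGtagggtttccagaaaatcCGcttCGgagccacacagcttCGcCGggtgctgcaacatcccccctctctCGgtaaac
WDR82: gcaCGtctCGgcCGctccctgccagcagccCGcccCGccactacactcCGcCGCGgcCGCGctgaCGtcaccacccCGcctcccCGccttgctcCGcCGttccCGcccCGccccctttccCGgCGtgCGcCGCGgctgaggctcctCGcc

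CpG is the sequence that the CXXC zinc finger of CXXC1 binds when it is unmethylated. Over the whole window of 300 bases the count of CpG was 33 for PSIP1, 36 for WDR82, 34 for BOD1L1, 28 for CXXC1, 20 for MEN1, 18 for RBBP5 and 16 for WDR5, against a median of 14 over 35116 windows of the same length. The windows with the fewest and the most CpG, WDR5 and WDR82, were those of a member that fell and a member that did not pass the test. Of the letters searched on both strands, CCAAT was found in the MEN1 window, as in 34.6% of all windows, and CCGGAAG, the core of many ETS factor sites, in the BOD1L1 window, as in 10.3% of all windows. CACGTG, the NRF1 palindrome, ACTACAA and TATAAA, which 7.26%, 1.24%, 2.77% and 11.5% of all windows hold, were in none of the 7 windows. These are matches of letters and do not show that a factor binds.

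Of the core subunits, WDR5, the beta-propeller protein that grips the enzymes and the histone tail (chromosome 9, 134135365 to 134159968), was slightly lower in the knockout. Its level was 147, 155 and 149 CPM in MLL4KO and 164, 172 and 158 CPM in MLL4WT, with every MLL4KO library below every MLL4WT library. It fell 1.10-fold, with a log2 fold change of -0.13 ± 0.05 (SE) and an edgeR adjusted p of 0.0468. The call sat at the threshold and held under 5 of 18 alternative settings, with log2 fold changes from -0.16 to -0.04 and adjusted p from 0.000714 to 0.514. It was lost without any 1 of the MLL4KO replicates or without MLL4WT replicate 2, and the smallest difference came when GC and length trends were removed from each library (log2 -0.04, edgeR adjusted p = 0.488).

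RBBP5, which docks ASH2L to the enzyme (chromosome 1, 205086142 to 205122015), was at 61.8, 65.1 and 66.9 CPM in MLL4KO and 60.9, 64.1 and 61.7 CPM in MLL4WT. The ranges overlapped, and the log2 fold change was 0.05 with a 95% interval of -0.07 to 0.17 (edgeR adjusted p = 0.494). ASH2L, the subunit that contacts both RBBP5 and DPY30 (chromosome 8, 38105242 to 38144076), was at 73.6, 70.4 and 69.8 CPM in MLL4KO and 60.9, 67.4 and 74.7 CPM in MLL4WT. The wild-type libraries enclosed all 3 knockout libraries, and the log2 fold change was 0.06 with an interval of -0.09 to 0.21 (edgeR adjusted p = 0.506).

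DPY30, the small subunit that binds ASH2L (chromosome 2, 31867809 to 32039812), was at 45.9, 41.3 and 47.0 CPM in MLL4KO and 42.6, 52.8 and 50.3 CPM in MLL4WT. The ranges overlapped through MLL4WT replicate 1, the lowest wild-type library, and the log2 fold change was -0.14 with an interval of -0.31 to 0.04 (edgeR adjusted p = 0.19). Without MLL4WT replicate 1 it was -0.20 and passed the test (edgeR adjusted p = 0.00797). A flow cell term gave -0.20 (edgeR adjusted p = 0.00522), but MLL4WT replicate 1 is alone on its flow cell code. That term therefore leaves the same library out of the comparison, and these settings are not separate support. The exons of DPY30 overlap those of MEMO1 on the same strand over 1385 bases, so how reads were shared between these genes by the authors' counting affects this value.

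Menin, the MEN1 tumour suppressor product that joins complexes of MLL1 (KMT2A) and MLL2 (here KMT2B) (chromosome 11, 64803510 to 64811294), was at 141, 132 and 130 CPM in MLL4KO and 157, 147 and 139 CPM in MLL4WT. The ranges met only through MLL4KO replicate 1 and MLL4WT replicate 3. The log2 fold change was -0.13 with an interval of -0.25 to -0.01, equal in size to that of WDR5, but its adjusted p of 0.0792 in the edgeR test missed the threshold. It ran from -0.17 to -0.04 over the alternatives and passed the test under 1 of 18, the replicate block (log2 -0.14, edgeR adjusted p = 0.0424).

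HCFC1, a large adaptor that tethers SETD1A and MLL1 to promoter-bound factors (chromosome X, 153947553 to 153971807), had the most counts of the 10. It was at 313, 324 and 310 CPM in MLL4KO and 356, 325 and 317 CPM in MLL4WT. Knockout replicate 2 lay inside the wild-type range, and the log2 fold change was -0.07 with an interval of -0.18 to 0.04 (edgeR adjusted p = 0.277). MLL4WT replicate 1 was the highest library, and without it the log2 fold change was -0.02.

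Of the SETD1 subunits, CXXC1 passed the test and WDR82 did not, and the difference between them was not itself tested. CXXC1, which brings the SETD1 enzymes to unmethylated CpG DNA (chromosome 18, 50282343 to 50288304), was at 109, 99.3 and 105 CPM in MLL4KO and 115, 122 and 124 CPM in MLL4WT. All 3 knockout libraries lay below the lowest wild-type library, and CXXC1 fell 1.16-fold (log2 -0.21 ± 0.05 SE, edgeR adjusted p = 0.00693). The call held under 15 of 18 alternatives and was lost without MLL4KO replicate 2 (log2 -0.17, edgeR adjusted p = 0.0589), with GC and length trends removed (log2 -0.12, edgeR adjusted p = 0.103) and with that removal plus the replicate block (log2 -0.11, edgeR adjusted p = 0.169).

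WDR82, which reads the phosphorylated tail of RNA polymerase II and joins the SETD1 enzymes to it (chromosome 3, 52254421 to 52288020), was at 268, 278 and 260 CPM in MLL4KO and 258, 271 and 270 CPM in MLL4WT. The ranges overlapped almost entirely, and the log2 fold change was 0.01 with an interval of -0.09 to 0.11 (edgeR adjusted p = 0.851). The sign of so small a difference turned under several settings, all of which left it between -0.05 and 0.07.

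PSIP1, whose PWWP domain reads methylated lysine 36 of histone H3 and whose other end binds menin with MLL1 (chromosome 9, 15464066 to 15511019), showed the clearest difference. It was at 227, 237 and 245 CPM in MLL4KO and 174, 183 and 180 CPM in MLL4WT, and the lowest knockout library stood well above the highest wild-type library. It rose 1.32-fold (log2 0.40 ± 0.05 SE, interval 0.30 to 0.50, edgeR adjusted p = 3.4e-05), and 72.7% of all tested genes had a smaller log2 difference in either direction. The call held under 18 of 18 alternatives, with log2 fold changes from 0.30 to 0.46. The gene makes a long and a short protein form from different transcripts, which a count per gene does not separate.

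BOD1L1, a partner of SETD1A in protecting stalled replication forks (chromosome 4, 13568738 to 13627723), had the lowest counts per length of the 10. It was at 49.4, 54.5 and 51.5 CPM in MLL4KO and 37.9, 49.3 and 45.9 CPM in MLL4WT. The groups did not overlap, by a margin of the last printed digit, and the log2 fold change of 0.20 ± 0.08 (SE) missed the threshold (edgeR adjusted p = 0.0748). Without MLL4WT replicate 1, its lowest library, the log2 fold change was 0.13 (edgeR adjusted p = 0.0712), and without MLL4WT replicate 2 it was 0.28 (edgeR adjusted p = 0.032). It passed the test under 5 of 18 alternatives. Of the 10 members 4 had groups that did not overlap, where 52.5% of all tested genes did not.

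**Figure D3:**
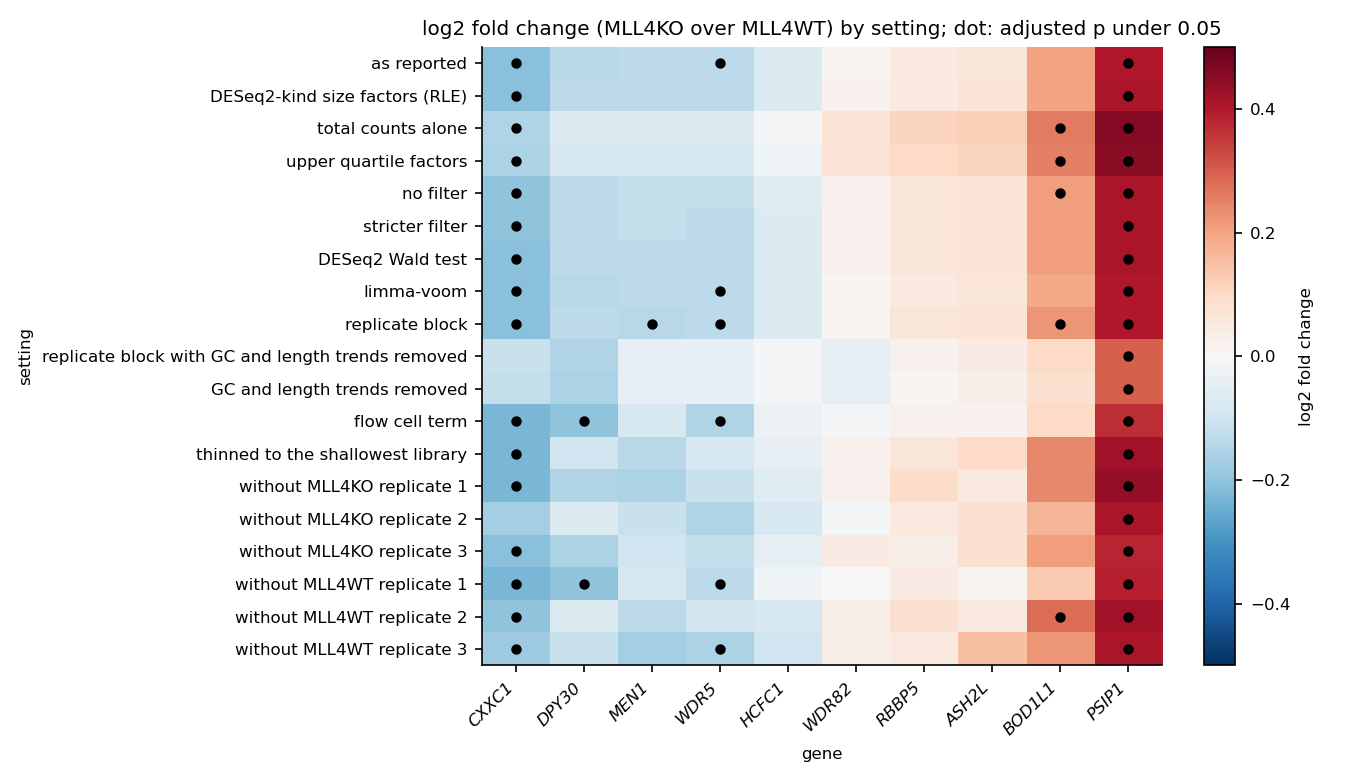
Log2 fold change of each member (columns, colour scale) as reported and under 18 alternative settings (rows), with a dot where the adjusted p was under 0.05. PSIP1 carries a dot in every row, CXXC1 in all but 3 of the alternatives, and WDR5 and BOD1L1 in 5 of the alternatives each.

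The column names of the table carry codes in the form of flow cell codes, and 2 of the codes hold both genotypes. Within the code that holds MLL4KO replicate 1 and MLL4WT replicate 3, the log2 differences were 0.33 for PSIP1, -0.19 for CXXC1 and -0.11 for WDR5. Within the code that holds MLL4KO replicates 2 and 3 and MLL4WT replicate 2, they were 0.40 for PSIP1, -0.26 for CXXC1 and -0.18 for WDR5. The groups of all 3 called members did not overlap, so their directions within both codes had to be those of the pooled values. Only the sizes within a code are new. BOD1L1 differed by 0.10 within each of the 2 codes, below its pooled 0.20. MLL4WT replicate 1, the library that stood apart, was alone on its code and gives no value of its own. A flow cell term fits this library exactly and so leaves it out of the genotype comparison. Without MLL4WT replicate 1, PSIP1 was at 0.39, CXXC1 at -0.23 and WDR5 at -0.13, all 3 still called, MEN1 was at -0.08 and ASH2L at 0.01.

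Exons of 4 further members overlap exons of a gene on the other strand, WDR5 over 408 bases (WDR5-DT), ASH2L over 338 bases (STAR), PSIP1 over 140 bases (SNAPC3) and WDR82 over 44 bases (GLYCTK). The library kit is not said to keep strand, so reads in these stretches cannot be assigned to a strand here.

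The same counts were expressed as a share of the summed counts of the 10 members, a measure that no library scaling enters. The members' summed level was 1422 to 1458 CPM in every library. The shares thus repeat the CPM values on another scale and are not separate support, and a difference in make-up was not tested. PSIP1 held 15.8, 16.3 and 17.1% of the members' counts in MLL4KO and 12.2, 12.6 and 12.7% in MLL4WT, with no overlap. CXXC1 held 7.56, 6.82 and 7.35% in MLL4KO and 8.07, 8.42 and 8.73% in MLL4WT, and WDR5 held 10.2, 10.6 and 10.4% in MLL4KO and 11.5, 11.8 and 11.1% in MLL4WT. WDR82 held 18.6 ± 0.479% in MLL4KO and 18.6 ± 0.447% in MLL4WT (SD, n = 3 each). Shares sum to a fixed total, so a higher share of PSIP1 lowers the shares of the others.

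Levels of different genes were compared per length, as CPM per kb of annotated exon. In MLL4KO the order was WDR82 (47.0 ± 1.57, SD, n = 3), WDR5 (41.4 ± 1.19), HCFC1 (35.1 ± 0.822), PSIP1 (35.0 ± 1.35), MEN1 (31.6 ± 1.41), CXXC1 (24.2 ± 1.09), DPY30 (16.3 ± 1.09), RBBP5 (14.7 ± 0.581), ASH2L (12.1 ± 0.346) and BOD1L1 (3.27 ± 0.163). In MLL4WT it was WDR82 (46.5 ± 1.28), WDR5 (45.4 ± 1.95), HCFC1 (36.9 ± 2.24), MEN1 (34.8 ± 2.12), CXXC1 (27.9 ± 1.13), PSIP1 (26.4 ± 0.699), DPY30 (17.7 ± 1.93), RBBP5 (14.1 ± 0.372), ASH2L (11.4 ± 1.16) and BOD1L1 (2.80 ± 0.37). The library ranges of some neighbours overlapped, in MLL4KO those of HCFC1 with PSIP1 and of DPY30 with RBBP5, and in MLL4WT those of WDR82 with WDR5, of HCFC1 with MEN1 and of CXXC1 with PSIP1.

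Within the core, WDR5 per length was thus more than the levels of RBBP5, ASH2L and DPY30, whose own values lay between 12.1 and 16.3 CPM per kb in MLL4KO and between 11.4 and 17.7 CPM per kb in MLL4WT. WDR5 also serves complexes that lack the other core subunits, and whether this bears on its level was not tested. The levels per length depend on the length used. Of the 2745 exon bases of DPY30, 1385 overlap exons of MEMO1. By longest transcript the MLL4KO levels were 47.7 CPM per kb for WDR5, 29.5 for DPY30, 23.1 for ASH2L and 14.7 for RBBP5. In MLL4WT they were 52.3, 32.0, 21.9 and 14.1 CPM per kb. WDR5 was still highest of the core, while ASH2L then stood above RBBP5. With the longest transcript of each gene as its length, PSIP1 came first in MLL4KO at 69.8 CPM per kb and WDR82 next at 62.1 CPM per kb, whereas in MLL4WT WDR82 led at 61.5 CPM per kb and PSIP1 followed at 52.7 CPM per kb. BOD1L1 was lowest with either length in both genotypes.

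**Figure D4:**
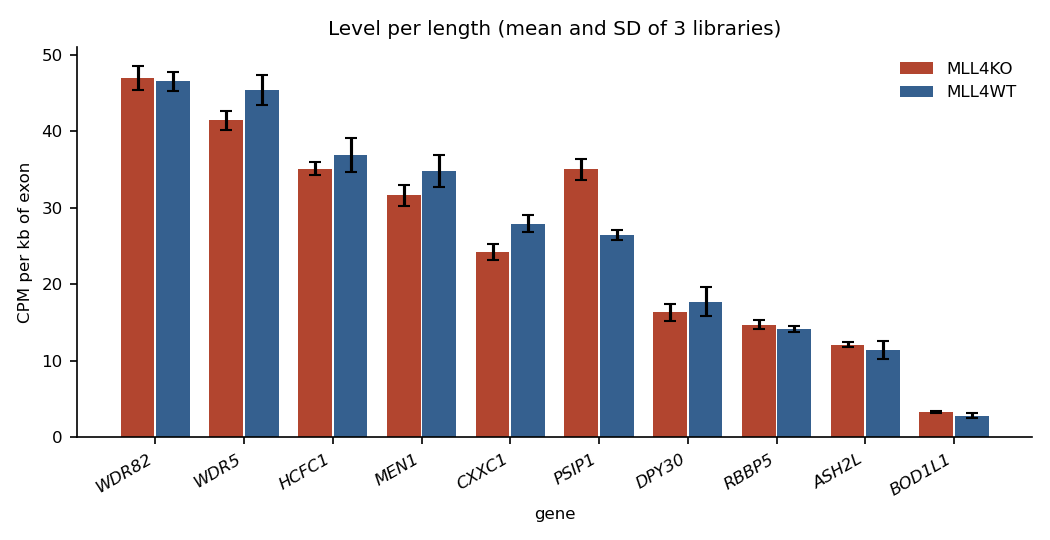
Level per length of each member, in CPM per kb of exon (vertical axis from 0), as mean and SD of 3 MLL4KO and 3 MLL4WT libraries. WDR82 and WDR5 stand highest in both genotypes, and BOD1L1 lowest at 3.27 in MLL4KO and 2.80 in MLL4WT.

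The GC content of a gene's transcripts went with the direction of its difference across the whole table. Among the 4519 tested genes whose longest transcript has at least 55% GC, the median log2 fold change was -0.10, with 14.5% called higher and 30.8% called lower, and among the 5117 genes under 45% GC it was 0.06, with 25.5% higher and 13.7% lower. Among the members, HCFC1 (61.5% GC), CXXC1 (59.8%), MEN1 (58.9%) and WDR5 (55.5%) all had negative log2 fold changes, while of the 6 members under 50% GC, DPY30 (40.0%) had a negative value and PSIP1 (40.4%), BOD1L1 (43.2%), RBBP5 (43.8%), WDR82 (43.9%) and ASH2L (48.9%) had positive ones. With GC and length trends removed from each library, PSIP1 was at 0.30 (edgeR adjusted p = 3.3e-05), CXXC1 at -0.12, MEN1 and WDR5 at -0.04 and HCFC1 at -0.01. BOD1L1 was then at 0.08 against 0.20 as reported, DPY30 at -0.16 against -0.14, WDR82 at -0.05, ASH2L at 0.03 and RBBP5 at 0.01. A removal of this kind also takes out any true difference between the genotypes that runs along GC content.

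Of the 6 genes of the enzymes that these subunits serve, 33.3% were called, against 41.4% of all tested genes, with 1 gene in each direction. SETD1A rose 1.15-fold to 133 ± 3.6 CPM in MLL4KO, against 116 ± 7.58 CPM in MLL4WT (edgeR adjusted p = 0.00921), KMT2B fell to 63.2 ± 3.45 CPM in MLL4KO, against 90.5 ± 3.44 CPM in MLL4WT (edgeR adjusted p = 2.33e-05), and KMT2A, KMT2C, KMT2D and SETD1B did not pass the test. The labels do not say whether the knockout targeted KMT2D or KMT2B, so whether the lower KMT2B is that of the targeted gene cannot be told here. The SETD1A call was lost without MLL4KO replicate 1 (edgeR adjusted p = 0.0517). SETD1B, at a log2 fold change of 0.15, passed the test with a flow cell term, without MLL4WT replicate 1, with no filter and with GC and length trends removed, with or without the block (log2 0.16 to 0.24). The flow cell term and the omission of MLL4WT replicate 1 both leave that library out of the comparison. Among the genes of the SETD1 complexes, SETD1A was thus called higher and CXXC1 lower, and SETD1B and WDR82 did not pass the test. Each of these calls was lost under some alternative setting, and differences between these genes were not tested.

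Of the 3 matched partners of MLL3 and MLL4, KDM6A, the H3 lysine 27 demethylase UTX, fell 1.14-fold (edgeR adjusted p = 0.0254) but missed the threshold under 10 of 18 alternatives, and PAXIP1 and NCOA6 did not pass the test. Of 4 paralogs of members, HDGFL2, which like PSIP1 carries a PWWP domain, rose 1.17-fold to 160 ± 2.34 CPM in MLL4KO, against 136 ± 15.7 CPM in MLL4WT (edgeR adjusted p = 0.0231). That call was lost without any 1 of the MLL4KO replicates (log2 0.22 to 0.24, edgeR adjusted p between 0.0543 and 0.073). With GC and length trends removed the log2 fold change was larger, 0.32 against 0.22, but missed the threshold (edgeR adjusted p = 0.0541), and with that removal plus the replicate block it was 0.35 and passed (edgeR adjusted p = 0.0103). WDR5B, HCFC2 and BOD1 did not pass the test, although BOD1 passed it downward without MLL4WT replicate 1 (log2 -0.21, edgeR adjusted p = 0.000481) and with a flow cell term (log2 -0.22, edgeR adjusted p = 0.00025), and WDR5B with GC and length trends removed (log2 -0.48, edgeR adjusted p = 0.0412). For BOD1 both settings leave MLL4WT replicate 1 out of the comparison. WDR5B was far below its paralog at 3.32 ± 0.433 CPM in MLL4KO and 4.50 ± 0.414 CPM in MLL4WT.

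WDR5 and HCFC1 also sit in or beside the NSL acetyltransferase complex, of whose 7 genes KANSL1 and KANSL3 rose 1.12-fold and 1.11-fold, MCRS1 fell 1.27-fold (edgeR adjusted p = 0.0221, 0.0441 and 0.000558) and 4 did not pass the test. KANSL1 was lost under 7 of 18 alternatives, KANSL3 under 8 and MCRS1 under none. Of 6 factors that bind HCFC1, THAP11, a zinc finger protein that recruits it to promoters, fell to 31.0 ± 1.88 CPM in MLL4KO, against 42.3 ± 3.07 CPM in MLL4WT (1.35-fold, edgeR adjusted p = 0.00059), and the deubiquitinase gene BAP1 fell 1.18-fold (edgeR adjusted p = 0.002). No gene of that list passed the test upward, where 19.8% of all tested genes did, and its median log2 fold change was 0.09. ZNF143, OGT, SIN3A and ASXL1 did not pass the test, although for SIN3A and ASXL1 every MLL4KO library lay above every MLL4WT library. In all, 4 of the 6 genes of that list had groups that did not overlap, where 52.5% of all tested genes did not. With GC and length trends removed, MCRS1 was at -0.23 against -0.35 as reported, THAP11 at -0.28 against -0.44, BAP1 at -0.15 against -0.23 and KANSL1 at 0.04 against 0.16.

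Of 6 genes of the phosphatase complex that WDR82 forms with PNUTS and of ZC3H4, PPP1CC rose 1.10-fold (edgeR adjusted p = 0.0222) but missed the threshold under 5 of 18 alternatives, and 5 did not pass the test. In the PSIP1 family and its partners, HDGF fell 1.18-fold to 416 ± 1.29 CPM in MLL4KO, against 488 ± 8.38 CPM in MLL4WT (edgeR adjusted p = 0.000647), opposite in sign to PSIP1 and HDGFL2, and 4 of the 6 tested genes did not pass the test. The log2 fold change of HDGF was -0.23, and -0.14 with GC and length trends removed. Among partners and reported targets of menin, CDKN1B, the cell cycle inhibitor p27, rose 1.53-fold to 49.6 ± 1.39 CPM in MLL4KO, against 32.4 ± 1.27 CPM in MLL4WT (edgeR adjusted p = 1.14e-05), SMAD3 fell 1.23-fold (edgeR adjusted p = 0.000478), and HOXA10 fell 1.2-fold (edgeR adjusted p = 0.0204) but missed the threshold under 9 of 18 alternatives. JUND, CDKN2C and HOXA9 did not pass the test, and MEIS1 had too few counts to be tested.

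Over the 42 tested genes of these lists, 6 rose, 8 fell and 28 stayed above the threshold, so that 33.3% were called against 41.4% of all tested genes, and the median log2 fold change was -0.01. Under the flow cell term 52.4% of them were called, against 51.3% of all tested genes. Without MLL4WT replicate 1, 10 rose and 10 fell (47.6% called, against 49.5% of all tested genes). Without MLL4KO replicate 1 or 2, 2 rose and 6 fell (19% called, against 31.8% and 30.3% of all tested genes). Without MLL4KO replicate 3, 3 rose and 6 fell (21.4% called, against 31.4%).

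**Figure D5:**
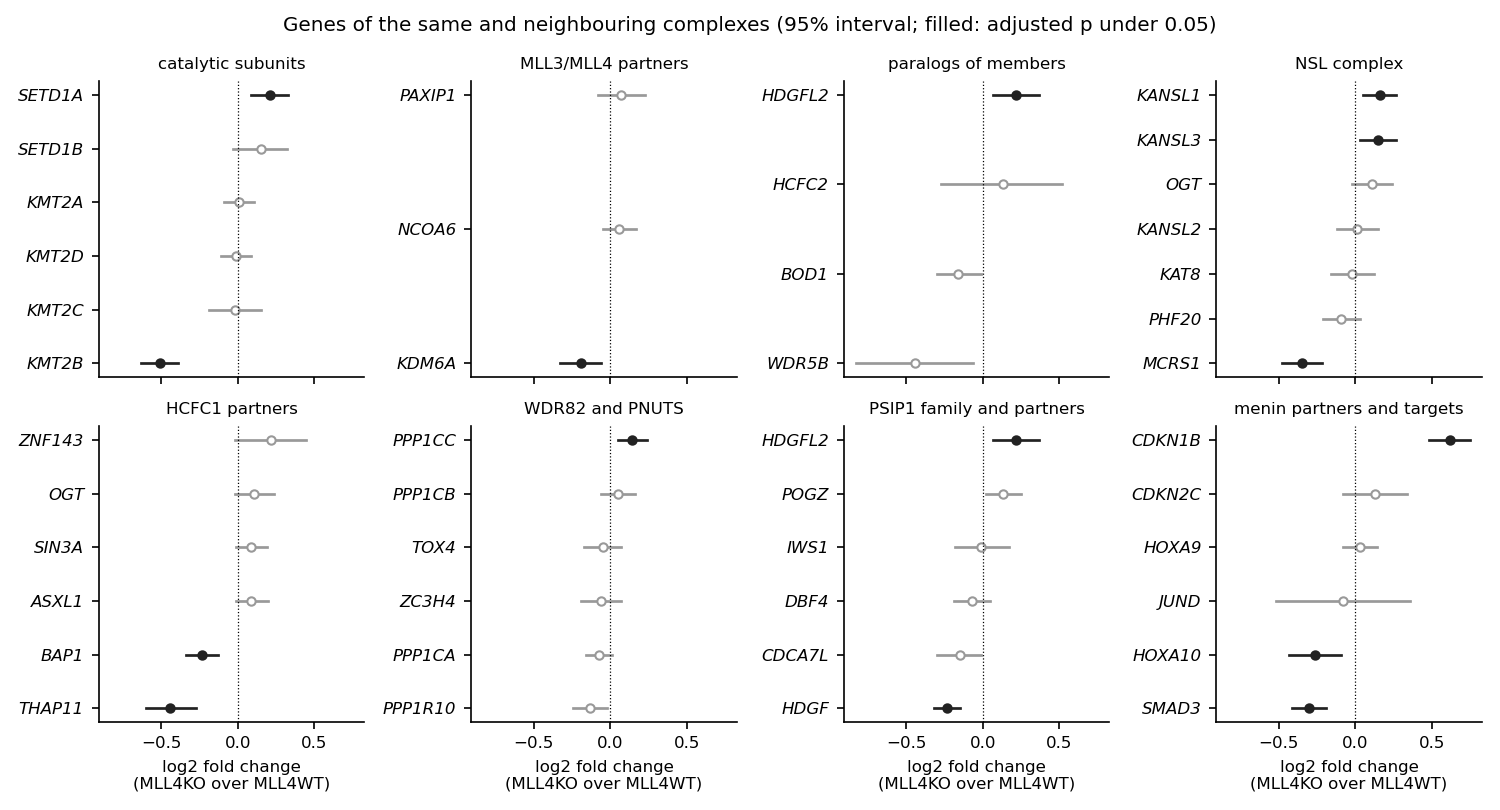
Log2 fold change, MLL4KO over MLL4WT, with 95% interval, for the tested genes of 8 lists around the members; filled points passed an adjusted p under 0.05. CDKN1B is highest at 0.62 and KMT2B lowest of the called genes at -0.51.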

How the data were processed

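The authors deposited expected counts per gene, written as whole numbers and not normalised, judging by the values. The submitters' processing notes list Salmon 1.8.0, DESeq2 1.44.0 and hg38 without saying what each did. Neither the annotation release nor a strand setting is given in the sources used here. All 6 columns were used and matched to samples by library name. Genes passing filterByExpr (14543, with 99.9% of counts) were tested with the edgeR 4.0.16 quasi-likelihood test in R 4.3.3 (TMM scaling, robust estimates, no covariate, 4 residual degrees of freedom). Adjustment was over all tested genes, with a threshold of 0.05; 95% intervals came from the F statistic. The common biological coefficient of variation was 5.62%. At a floor of 3 counts the shallowest library reaches 0.439 CPM, far below every member.

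The members and lists were chosen with earlier results of these data known. The members, paralogs, catalytic genes and MLL3/MLL4 partners were all named, and from each other list the called genes with the smallest adjusted p, at most 2 in each direction; ZNF143, OGT, SIN3A, ASXL1, JUND, CDKN2C, HOXA9 and MEIS1 are named outside that rule. PAGR1 is not analysed here. Coordinates, exon lengths and GC came from GENCODE release 29 on GRCh38, which the notes call hg38. Alternatives used edgeR, limma-voom 3.58.1 and DESeq2 1.42.0, and GC and length trends were removed by lowess with a span of 0.3. The edgeR fit (plain, with the block, or with GC removal), limma-voom and DESeq2 were also run on simulated data. The block and GC removal together were not. The simulated data held a far smaller share of changed genes than was called here. Their outcome is not given, and no support is drawn from it.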

Additional observations from a re-analysis of the deposited data

How the results depend on the processing

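Alternatives were other library scalings, no filter and a stricter one, other tests, a replicate block, a flow cell term, removal of GC and length trends, thinning to 6829400 counts, and leaving out each library. The flow cell term and leaving out MLL4WT replicate 1 both take that library out of the comparison. Depth limited no member's detection, since the lowest count of any was 255. PSIP1 was called under all 18. WDR5 missed the threshold with DESeq2-kind size factors, the stricter filter and the DESeq2 Wald test (log2 -0.13 each), total counts (-0.07), upper quartile factors and thinning (-0.08 each), no filter (-0.12) and GC removal with or without the replicate block (-0.04 each). CXXC1 missed it with GC removal (-0.12), also with the block (-0.11). BOD1L1 passed with total counts (0.26), upper quartile factors (0.25), no filter (0.21) and the block (0.22), MEN1 with the block (-0.14) and DPY30 with the flow cell term (-0.20). WDR82 turned to -0.05 with GC removal, with or without the block, and to -0.01 with the flow cell term.

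Members that rose numbered 2 with total counts, upper quartile factors, no filter and the block. Members that fell numbered 1 with DESeq2-kind size factors, total counts, upper quartile factors, no filter, the stricter filter, the Wald test and thinning, 0 with GC removal, with or without the block, and 3 with the block alone and with the flow cell term. Of all tested genes, 41.3% were called with DESeq2-kind size factors, 41.9% with total counts, 41.5% with upper quartile factors and 23.4% with no filter. The share was 44.4% with the stricter filter, 34% with the Wald test and 36.2% with thinning. It was 42.8% with GC removal, 38.5% with the block added, 39.3% with the block alone and 51.3% with the flow cell term. Companion genes that rose numbered 10 with total counts, upper quartile factors and the flow cell term, against 6 as reported, and those that fell 12 with the flow cell term, 11 with GC removal and 6 with total counts and upper quartile factors, against 8. Total counts gave 3706 genes higher and 2394 lower, or 60.8% of calls higher against 47.9% as reported, and upper quartile factors 3561 and 2475, or 59.0%. The median shift of log2 fold changes from those reported was 0.06 with total counts and 0.05 with upper quartile factors. Why the scalings differ was not tested.

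Without one library each, log2 fold changes ran from -0.16 to -0.09 for WDR5, -0.23 to -0.17 for CXXC1, 0.38 to 0.44 for PSIP1, 0.13 to 0.28 for BOD1L1, -0.17 to -0.08 for MEN1, -0.20 to -0.07 for DPY30, -0.10 to -0.02 for HCFC1, 0.03 to 0.09 for RBBP5, 0.01 to 0.15 for ASH2L and -0.01 to 0.04 for WDR82. Members that rose numbered 1 to 2 and fell 0 to 3, companion genes 2 to 10 and 6 to 10, and all genes 2163 to 3521 and 2316 to 3822.

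Companion values that turned sign ran from -0.03 to 0.30 for HCFC2, -0.08 to 0.04 for KMT2C and -0.04 to 0.02 for KMT2D without one library each.

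Among uncalled companion genes, the sign turned with total counts for KMT2C (0.04) and KMT2D (0.05), with upper quartile factors for KMT2C (0.03) and KMT2D (0.04), with GC removal, with or without the block, for KMT2A (-0.09) and NCOA6 (-0.01), with the flow cell term for HCFC2 (-0.04) and with thinning for KMT2A (-0.04) and KMT2D (0.01). Deviations of same-numbered libraries had correlations of -0.01 to 0.03, and those of differently numbered libraries -0.08 to 0.05. Whether equal numbers share a culture or day cannot be told from these values.

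With the longest transcript as length, levels per kb over the 6 libraries were 50 for WDR5 (43.4 by exon length), 22.5 for ASH2L (11.8), 30.7 for DPY30 (17.0), 44.5 for MEN1 (33.2), 38.3 for CXXC1 (26.0), 61.8 for WDR82 (46.7), 61.3 for PSIP1 (30.7) and 4.55 for BOD1L1 (3.03).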
